A study of Mus musculus with 20 samples.

Results

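The genes described here are the 9 that encode the hypoxia-inducible factors (HIF) and the enzymes that sense oxygen for them, Hif1a, Epas1, Hif3a, Arnt, Egln1, Egln2, Egln3, Hif1an and Vhl, of 22090 gene symbols in the count table. They were chosen by symbol, with the rise of Hif1a in actinic keratoses already known, so AK vs. NS values are given below as descriptions, without p-values, and where calls in that comparison are counted nothing is read from the count. All 9 were in the table, and 8 passed the filter on low counts in each of the 3 comparisons, Hif3a being the exception. RNA was sequenced from 8 normal skin (NS), 8 actinic keratosis (AK, the precancerous lesion) and 4 cutaneous squamous cell carcinoma (cSCC) tissues. The mice were female, of the hairless strain SKH-1 and 7 months old when divided into groups, 4 without light burn (WO) and 4 given ultraviolet radiation (UVR). The tissues were taken after weeks of irradiation, so at a later age. All AK and cSCC came from the 4 irradiated mice, each of which gave 3 lesions and 1 normal tissue, so the AK samples stand for 4 animals. NS mixed irradiated and unirradiated skin, and the labels do not say which NS is which, nor which tissues share a mouse. The tests treated tissues as independent, and p-values may therefore be too small. The labels give daily irradiation, whereas the methods of the study give fewer days a week.

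HIF is a dimer of an oxygen-labile alpha subunit (HIF-1α from Hif1a, HIF-2α from Epas1, HIF-3α from Hif3a) and the stable beta subunit ARNT. In the presence of oxygen the prolyl hydroxylases PHD2 (Egln1), PHD1 (Egln2) and PHD3 (Egln3) mark the alpha subunit, VHL then carries it to a ubiquitin ligase for destruction, and the asparaginyl hydroxylase FIH (Hif1an) blocks its coactivator contact. When oxygen is low the alpha subunit escapes and the dimer binds a short DNA core near genes of glucose use, vessel growth and cell survival, Egln1 and Egln3 among them. In skin, HIF-1α is found in keratinocytes of the epidermis, while HIF-2α is best known from endothelium and lung. Because the alpha subunits are controlled mostly as proteins, mRNA levels give the amount of message and not the activity of the factor.

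The bases before the start sites of Hif1a and the 3 prolyl hydroxylase genes are shown, because HIF is known to induce Egln1 and Egln3 and Hif1a is the alpha subunit with the higher message level. RefSeq (GRCm38.p6) gave 250 bases before the start for 8 of the 9 genes, Epas1 having no entry. The core was searched as ACGTG or GCGTG on either strand. It is common, being present in 12679 of 32851 promoters of this length (38.6%), so a match is a description of the letters and not a binding site. Capitals below mark each match, and the adjoining capitals CACGTG in Hif1a are 2 overlapping matches, 1 on each strand, that end the same palindrome. Egln2 has 2 start sites in RefSeq, and the upstream one is shown. The windows of Hif1a (chr12:73907617-73907866, plus strand), Egln2 (chr7:27166803-27167052, minus strand) and Egln3 (chr12:54203875-54204124, minus strand) hold no annotated exon. The Hif1a window lies inside the span annotated for the gene (73901375 to 73947530). It therefore precedes a start within that span and not the outermost one.
Hif1a: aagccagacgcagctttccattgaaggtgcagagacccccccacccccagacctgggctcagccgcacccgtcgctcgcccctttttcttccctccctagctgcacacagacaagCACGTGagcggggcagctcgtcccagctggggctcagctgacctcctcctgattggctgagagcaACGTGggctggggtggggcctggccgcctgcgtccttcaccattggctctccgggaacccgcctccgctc
Egln2: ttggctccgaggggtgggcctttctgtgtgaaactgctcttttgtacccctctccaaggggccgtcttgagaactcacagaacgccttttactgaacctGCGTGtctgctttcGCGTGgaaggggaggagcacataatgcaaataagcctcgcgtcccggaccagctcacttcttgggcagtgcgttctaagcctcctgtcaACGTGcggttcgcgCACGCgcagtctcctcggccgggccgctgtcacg
Egln3: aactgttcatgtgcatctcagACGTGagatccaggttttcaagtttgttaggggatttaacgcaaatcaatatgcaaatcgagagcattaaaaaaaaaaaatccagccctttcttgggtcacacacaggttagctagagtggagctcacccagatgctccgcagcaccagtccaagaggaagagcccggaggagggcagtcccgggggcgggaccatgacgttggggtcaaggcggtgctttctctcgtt
Hif1a held 3 matches, 66, 130 and 131 bases before the start, Egln2 held 4 (30, 44, 133 and 147 bases) and Egln3 held 1 (225 bases). The window of Egln1 overlaps an annotated exon, and only its 2 matches are shown, each in 25 bases on the minus strand (chr8:124949366-124949390 and chr8:124949308-124949332), 122 and 64 bases before the start.
Egln1, 122 bases: ccggcccgccGCGTGcgcgcggccc
Egln1, 64 bases: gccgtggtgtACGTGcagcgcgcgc
The match nearer the start of Egln1 reads TACGTG, a longer form held by 895 of 32851 promoters (2.72%). That match lies inside the span annotated for Egln1 (124908587 to 124949324), so it is not upstream of the outermost start. Hif3a held 2 matches and Arnt 1, and the windows of Hif1an and Vhl held 0.

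Total counts ranged from 775750 to 14055206 per sample, and 3 counts, taken as the lowest level that can be shown, corresponded to 0.225 to 3.78 CPM, which are counts relative to the library total after edgeR's TMM scaling. These floors cover counting error only. Keratinocyte markers were present in every library, but 2 of the 4 cSCC libraries carried genes of another organ. The 8 lung epithelium markers summed to 36020 CPM in cSCC replicate 20 against 15.4 to 61.8 CPM in the other samples, and the 8 heart muscle markers summed to 57330 CPM in cSCC replicate 21 against 8.72 to 157 CPM elsewhere. In cSCC replicate 18, 10 genes led by the haemoglobin gene Hba-a1 took 49.5% of all counts, and its TMM factor was 0.509 against 0.852 to 1.22 in the others. Many results on cSCC are therefore also given without replicates 20 and 21, which leaves 2 cSCC samples. A result for which no such value is given is that of all 4 cSCC and is not shown to hold without them. In whole tissue, fewer cells of a type and less RNA per cell cannot be told apart.

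By group mean, Hif1a was the most abundant of the 9 messages per length of transcript in every group, with 44.7 CPM per kb of exon in NS, 117 in AK and 94.1 in cSCC. In single NS samples it lay above Egln3 in 6 of 8. Egln3 came next, with 38.5, 77.1 and 72.1 CPM per kb, and then Egln1, with 27.4, 43.7 and 33.01 CPM per kb. The mean of Epas1 lay below these 3 in each group, at 11.5, 12.1 and 20.1 CPM per kb. In cSCC replicate 20, however, Epas1 lay above Egln3 (37.6 CPM per kb) and Egln1 (32.3). The cSCC mean of Epas1 rested on the libraries with lung and heart genes, with 5.10 CPM per kb in replicate 18, 4.64 in replicate 19, 47.8 in replicate 20 and 22.7 in replicate 21, and in replicates 18 and 19 Epas1 lay below Vhl (10.7 CPM per kb in each). Vhl (8.21, 8.55 and 10.3) and Egln2 (6.02, 4.58 and 11.7) followed, the cSCC mean of Egln2 including 27.6 CPM per kb in replicate 21 against 4.47 to 7.38 in the other cSCC, and Arnt (3.69, 4.16 and 4.29) and Hif1an (3.74, 2.99 and 3.51) were lowest of the genes expressed. In NS the sample ranges of neighbours in this order were apart only between Egln1 and Epas1 and above Hif3a. In AK, Egln3 and Egln1, Egln1 and Epas1, and Hif1an and Hif3a were apart, while in cSCC only Vhl and Arnt, and Hif1an and Hif3a, were.

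**Figure D1:**
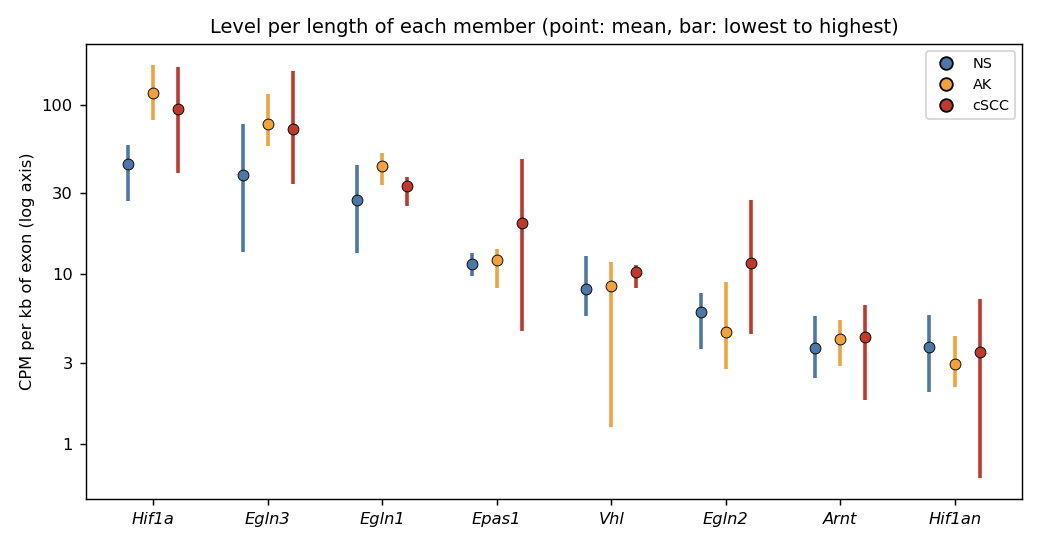
Level of each gene per kb of exon (CPM per kb, log axis) in NS (8 samples), AK (8) and cSCC (4), with the mean as a point and a bar from the lowest to the highest sample. Hif1a, with means of 44.7, 117 and 94.1 CPM per kb, leads in every group, followed by Egln3 and Egln1.

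Hif1a, on chromosome 12 (73901375 to 73947530, plus strand, GRCm38), encodes the alpha subunit that acts first in acute hypoxia. Its level in NS ran from 159 to 341 CPM (median 273), and in AK from 478 to 1012 CPM (median 619). Every AK sample lay above every NS sample, and the level was 2.59-fold higher in AK (log2 fold change 1.37, SE 0.18, n = 8 and 8). Between NS and AK the median of the summed macrophage markers went from 1985 to 4068 CPM, of keratinocyte markers from 33060 to 23180 CPM and of skeletal muscle markers from 3319 to 1115 CPM, with overlapping ranges, and their part in the level of Hif1a was not tested. In cSCC the level was 975 CPM in replicate 18, 640.2 in replicate 19, 372 in replicate 20 and 232 in replicate 21. Of these 4, 3 lay above all NS and replicate 21 within their range. Exons of Hif1a overlap the antisense gene Gm15283 over 330 bases (5.597% of its exon bases), and the strand used in counting is not stated, so reads from the 2 genes there could not be separated. A further 148 exon bases (2.51%) are shared with Gm49321 on the same strand.

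Hif1a was higher in cSCC than in NS, by 2.17-fold (log2 fold change 1.12, SE 0.34, n = 4 and 8, edgeR's quasi-likelihood test with Benjamini-Hochberg adjustment, adjusted p = 0.0319). Without replicates 20 and 21 the log2 fold change was 1.64 (SE 0.28, edgeR adjusted p = 0.00521). The call was lost when libraries were scaled by their size alone (0.72, edgeR adjusted p = 0.131) and without cSCC replicate 18 (0.69, edgeR adjusted p = 0.118) or cSCC replicate 19 (1.04, edgeR adjusted p = 0.0760). It was also lost without NS replicate 1, 2, 4, 5 or 7 (edgeR adjusted p = 0.0563, 0.0523, 0.0581, 0.0521 and 0.0515). Between cSCC and AK, 2 cSCC samples lay below all AK and 2 within their range, and the log2 fold change was -0.23 (SE 0.34, edgeR adjusted p = 0.666), turning to 0.29 (SE 0.29, edgeR adjusted p = 0.553) without replicates 20 and 21. The summed keratinocyte markers had the same order over the 4 cSCC libraries as Hif1a, with 28320, 19050, 7139 and 5209 CPM in replicates 18 to 21, and their part in the result was not tested.

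**Figure D2:**
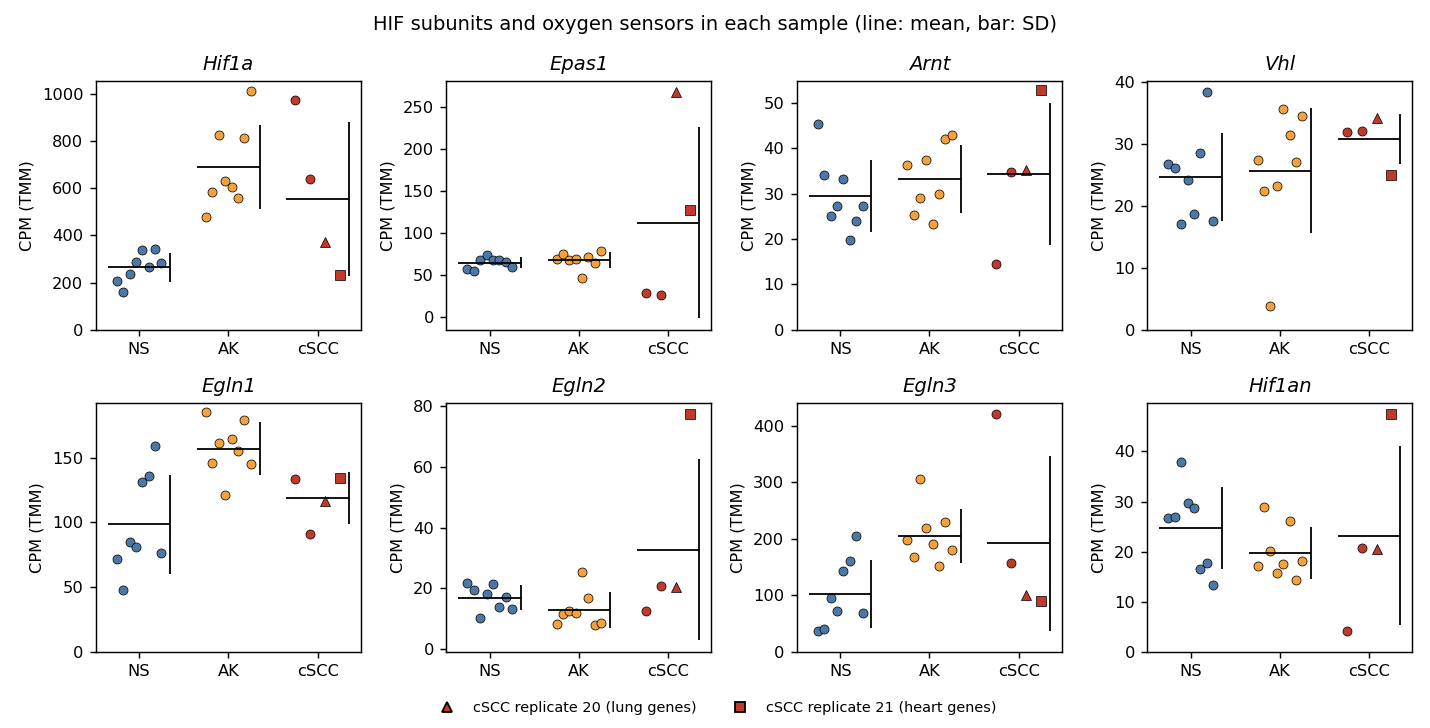
CPM (TMM) of the 8 expressed genes in each sample by group, one panel per gene, a line at the group mean and a bar of 1 SD either side, with cSCC replicate 20 (lung genes) as a triangle and cSCC replicate 21 (heart genes) as a square. Hif1a sits at 478 CPM or more in all AK and at 341 or less in all NS. For Epas1 no cSCC library lies within the NS or the AK range. Replicate 21 lies above all NS and AK for Arnt, Egln2 and Hif1an. Replicate 18 lies above all of them for Egln3 and below all of them for Arnt and Hif1an.

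Epas1, on chromosome 17 (86753700 to 86833410, plus strand), encodes the alpha subunit HIF-2α. Its level was similar in NS and AK, at 54.8 to 74.2 CPM in NS (median 66.7) and 46.4 to 79.1 CPM in AK (median 69.2), with a log2 fold change of 0.06 (SE 0.12). The cSCC samples fell on both sides of this band, with 28.5 CPM in replicate 18, 25.9 in replicate 19, 267 in replicate 20 and 127 in replicate 21. None of the 4 lay inside the NS or the AK range. Over all 4 the log2 fold change from NS was 0.88 (SE 0.48, edgeR adjusted p = 0.211) and from AK 0.86 (SE 0.47, edgeR adjusted p = 0.195). Without the libraries that carried lung and heart genes the direction turned, and Epas1 was 2.33-fold lower than in NS (log2 fold change -1.22, SE 0.24, edgeR adjusted p = 0.00935) and 2.38-fold lower than in AK (-1.25, SE 0.25, edgeR adjusted p = 0.00784). Leaving out replicate 20 alone gave -0.02 against NS (edgeR adjusted p = 0.976). Endothelial markers summed to 126 CPM in replicate 18 and 187 CPM in replicate 19, above the 32.7 to 113 CPM of NS, and to 298 and 837 CPM in replicates 20 and 21. The part of lung, heart and vessel cells in these levels was not tested.

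The ratio of Hif1a to Epas1 counts is formed within a library and does not depend on scaling. It was 2.90 to 5.18 in NS (median 3.88) and 6.89 to 13.04 in AK (median 10.7). These ranges did not overlap, but Hif1a was chosen for its rise in AK, so nothing is read from that gap. In cSCC the ratio was 34.2 in replicate 18 and 24.7 in replicate 19, above every AK, and 1.39 in replicate 20 and 1.82 in replicate 21, below every NS. As a share of Hif1a, Epas1 and Hif3a counts together, Epas1 took 16.2% to 25.6% in NS, 7.12% to 12.7% in AK, and 2.84%, 3.89%, 41.8% and 35.3% in cSCC replicates 18 to 21.

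**Figure D3:**
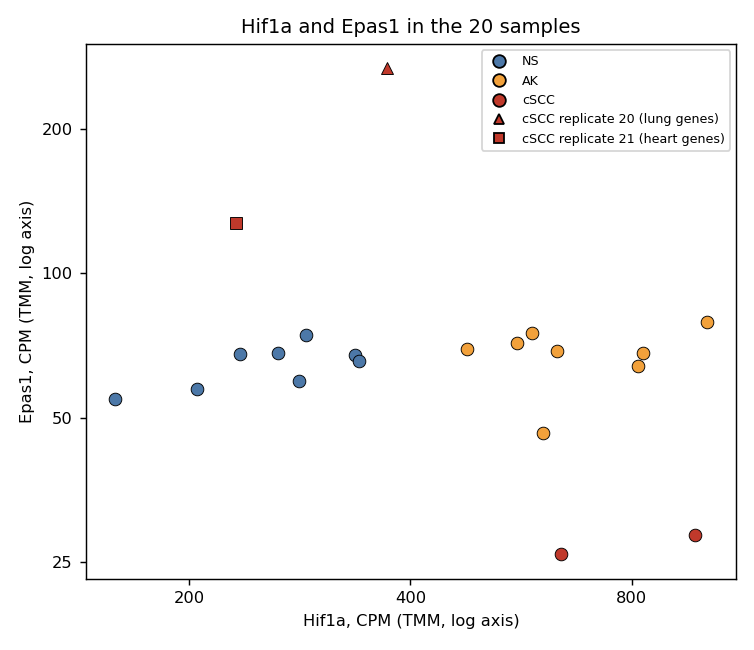
Hif1a (horizontal) and Epas1 (vertical) level in CPM (TMM, log axes) in the 20 samples, coloured by group, with cSCC replicate 20 as a triangle and cSCC replicate 21 as a square. NS and AK share one band of Epas1, from 46.4 to 79.1 CPM, and differ along Hif1a, while the cSCC samples lie outside that band on either side.

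Hif3a, on chromosome 7 (17031507 to 17062427, minus strand), encodes an alpha subunit with splice forms that restrain the other two. It had 3 counts in NS replicate 1, 1 in NS replicate 9, 5 in cSCC replicate 21 and 0 in the other 17 samples, all 8 AK among them. It was at or under the floor of 3 counts in all but cSCC replicate 21, and no fold is given.

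Arnt, on chromosome 3 (95434388 to 95497240, plus strand), is the common beta subunit. It ran from 19.8 to 45.4 CPM in NS (median 27.2) and from 23.2 to 43.0 CPM in AK (median 33.1), and was 14.6, 34.7, 35.3 and 52.9 CPM in cSCC replicates 18 to 21. The ranges of all groups overlapped. Its log2 fold change was 0.15 (SE 0.19) for AK vs. NS, 0.30 (SE 0.32, edgeR adjusted p = 0.549) for cSCC vs. NS and 0.21 (SE 0.32, edgeR adjusted p = 0.668) for cSCC vs. AK. The ratio of Hif1a to Arnt counts had a median of 10.2 in NS (4.51 to 14.2) and 21.2 in AK (13.2 to 28.5), and spanned 4.38 to 66.9 in cSCC.

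Egln1, on chromosome 8 (124908587 to 124949324, minus strand), encodes PHD2, the main hydroxylase of HIF-1α in normal oxygen. It ran from 48.1 to 159 CPM in NS (median 82.6), from 121 to 185 CPM in AK (median 158), and was 133, 91.0, 116 and 134 CPM in cSCC replicates 18 to 21. Of the 8 AK, 4 lay above every NS, and the log2 fold change was 0.66 (SE 0.20). All 4 cSCC lay within the NS range and 2 lay below every AK. The log2 fold change was 0.33 against NS (SE 0.31, edgeR adjusted p = 0.475) and -0.28 against AK (SE 0.20, edgeR adjusted p = 0.329).

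Egln3, on chromosome 12 (54178981 to 54203860, minus strand), encodes PHD3, a hydroxylase that HIF itself induces. It had the widest spread of the 3 in NS, from 36.1 to 204 CPM (median 83.6), and ran from 152 to 305 CPM in AK (median 194.5), a log2 fold change of 0.99 (SE 0.30). NS replicates 6, 7 and 8 were the highest NS for Egln1 (131, 136 and 159 CPM) and for Egln3 (143, 162 and 204 CPM), and also for the glucose transporter Slc2a1 (141, 105 and 161 CPM). In cSCC, Egln3 was 421, 157, 100.1 and 90.1 CPM in replicates 18 to 21, falling in the same order as Hif1a. The shared order depended on the scaling. With library size alone, Hif1a was higher in replicate 19 (730 CPM) than in replicate 18 (496 CPM). Egln3 in replicate 18 was then 214 CPM, within the AK range of 160 to 279 CPM. The log2 fold change of Egln3 was 0.95 against NS (SE 0.50, edgeR adjusted p = 0.193) and -0.01 against AK (SE 0.35, edgeR adjusted p = 0.983). Without replicate 18, Egln3 was lower in cSCC than in AK (log2 fold change -0.79, edgeR adjusted p = 0.0425). That fit kept replicates 20 and 21, the libraries with lung and heart genes. Without replicates 20 and 21 the sign was the other way (log2 fold change from AK 0.55, SE 0.31, edgeR adjusted p = 0.270). The log2 fold change of Egln3 from NS was then 1.52 (SE 0.54, edgeR adjusted p = 0.0850). Egln3 to Egln1 count ratios had medians of 0.987 in NS and 1.20 in AK and ranged from 0.672 to 3.16 in cSCC.

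Egln2, on chromosome 7 (27158658 to 27166802, minus strand), encodes PHD1. It was lowest of the 3 hydroxylases, at 10.2 to 21.8 CPM in NS (median 17.5) and 7.79 to 25.3 CPM in AK (median 11.7), with a log2 fold change of -0.41 (SE 0.26). In cSCC it was 12.5, 20.7, 20.5 and 77.2 CPM in replicates 18 to 21, and only replicate 21 left the range of NS and AK. Egln2 was 2.92-fold higher in cSCC than in AK (log2 fold change 1.55, SE 0.47, edgeR adjusted p = 0.0282), and against NS the log2 fold change was 1.06 (SE 0.41, edgeR adjusted p = 0.0864). Without replicate 21, the library with heart muscle genes, the difference from AK was 0.49 (edgeR adjusted p = 0.444). The call was also lost without AK replicate 12 (1.38, edgeR adjusted p = 0.0589) or AK replicate 17 (1.48, edgeR adjusted p = 0.0531). Against NS, Egln2 was called higher without cSCC replicate 18 (1.33, edgeR adjusted p = 0.0276), a fit that kept replicate 21. Without replicate 21 the log2 fold change against NS was 0.14 (edgeR adjusted p = 0.818). It was 0.02 without replicates 20 and 21 (edgeR adjusted p = 0.982). The ratio of Egln1 to Egln2 counts had a median of 5.96 in NS (2.48 to 9.77) and 12.7 in AK (6.48 to 23.0).

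Hif1an, on chromosome 19 (44562850 to 44576274, plus strand), encodes FIH. It ran from 13.4 to 38.0 CPM in NS (median 26.9) and from 14.4 to 28.8 CPM in AK (median 17.8), a log2 fold change of -0.33 (SE 0.23). In cSCC it was 4.17 CPM in replicate 18 (6 counts), 20.7, 20.5 and 47.5 CPM, so that 1 sample lay below and 1 above all NS and AK. The log2 fold change was 0.01 against NS (SE 0.46, edgeR adjusted p = 0.987) and 0.43 against AK (SE 0.45, edgeR adjusted p = 0.510).

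Vhl, on chromosome 6 (113623959 to 113631633, plus strand), encodes the protein that recognises the hydroxylated alpha subunit. It was 16.96 to 38.4 CPM in NS (median 25.1), 3.78 to 35.6 CPM in AK (median 27.2), and 32.0, 32.1, 34.1 and 24.97 CPM in cSCC replicates 18 to 21. The lowest AK value rested on 3 counts in AK replicate 12, one of the smallest libraries, and the other AK were at 22.3 CPM or above. All cSCC lay within both other ranges, with log2 fold changes of 0.37 against NS (SE 0.27, edgeR adjusted p = 0.349) and 0.36 against AK (SE 0.37, edgeR adjusted p = 0.509).

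A gene was called when its adjusted p was under 0.05 and its fold was over 1.5 or below 0.67. Between AK and NS, Hif1a met these limits, but it was chosen for this rise, so the 1 of 8 genes and the 4.64% of all genes that met them are listed only for the record. Between cSCC and NS, 1 of 8 (Hif1a, higher) was called where 19.3% of all genes were, and between cSCC and AK, 1 of 8 (Egln2, higher) where 24.4% were. With 8 genes, 1 call cannot be placed above or below these shares, so nothing is read from either count in cSCC. With library size alone as the scaling, 5.17% of all genes were higher and 1332 genes were lower in cSCC vs. NS, against 11.7% and 926 genes with TMM, and 8.49% and 11.3% in cSCC vs. AK, against 16% and 8.34%. Without replicates 20 and 21, Hif1a was called higher and Epas1 lower against NS, where 12.2% of genes were called, and only Epas1, lower, against AK, where 12.6% were. The sample ranges of Hif1a between AK and NS were apart, where 0.522% of all genes had ranges apart. Hif1a was chosen for its rise there, so nothing is read from this. Ranges overlapped for all 8 in cSCC vs. NS (8.43% of genes without overlap) and in cSCC vs. AK (10.2%). The 3 comparisons share samples and are not independent.

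**Figure D4:**
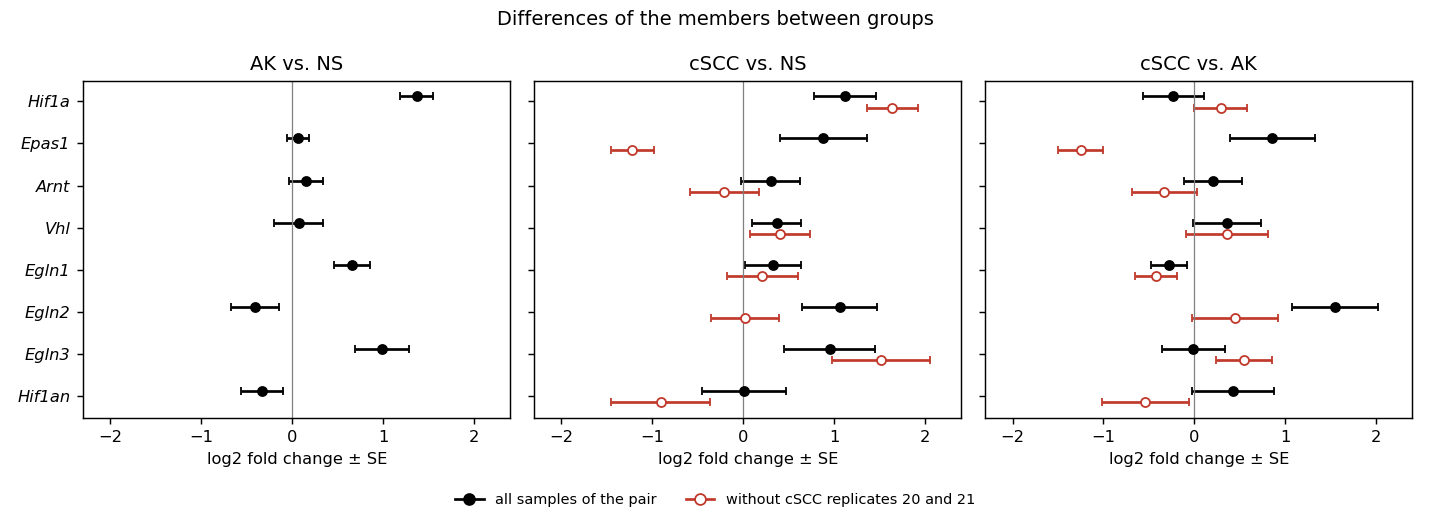
Log2 fold change of the 8 tested genes with its standard error for AK against NS and for cSCC against each of them, in black, with the cSCC comparisons also drawn without replicates 20 and 21 as open red points. Hif1a reaches 1.37 in AK vs. NS, and Epas1 moves from 0.88 to -1.22 in cSCC vs. NS when the 2 libraries are left out.

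The other genes of the pathway were taken as a list of 77, ordered by role, of which 72 were tested in AK vs. NS, 73 in cSCC vs. NS and 72 in cSCC vs. AK. Over all genes, 4.64%, 19.3% and 24.4% were called in these comparisons, and the counts below stand beside those shares. Of the coactivators and partners, 0 of 5 were called between AK and NS, 0 of 5 between cSCC and NS and 0 of 4 between cSCC and AK. Cited2, which competes with HIF-1α for its coactivator, had a log2 fold change of -1.28 in cSCC vs. NS (SE 0.47, edgeR adjusted p = 0.0715), and it was called lower without cSCC replicate 20 (-1.78, edgeR adjusted p = 0.0215) or NS replicate 8 (-1.44, edgeR adjusted p = 0.0323). Cited2 was not called without cSCC replicate 21 (-0.98, edgeR adjusted p = 0.162) or without replicates 20 and 21 (-1.44, edgeR adjusted p = 0.0784). Of 6 subunits of the VHL ligase or of its neddylation, 2 were higher in cSCC than in NS, Cul2, the scaffold (log2 fold change 1.04, SE 0.26, edgeR adjusted p = 0.0150), and Ube2m, the conjugating enzyme for Nedd8 (2.24, SE 0.39, edgeR adjusted p = 0.00271), the latter named after its values were seen. Ube2m was also higher than in AK (2.48, SE 0.49, edgeR adjusted p = 0.00409), and so was Cul2 (0.84, SE 0.27, edgeR adjusted p = 0.0350). The call of Cul2 against AK was lost without AK replicate 10, 12, 14, 15 or 17 or cSCC replicate 18 or 21 (edgeR adjusted p = 0.0502 to 0.190). It was also lost without cSCC replicates 20 and 21 together (0.79, edgeR adjusted p = 0.0795). Of 10 regulators of HIF or hydroxylase turnover, 0 were called in cSCC vs. NS. In cSCC vs. AK, Siah1a, a ubiquitin ligase for the prolyl hydroxylases, was lower (log2 fold change -1.16, SE 0.34, edgeR adjusted p = 0.0230) and Os9, named after its values were seen, was higher (1.38, SE 0.43, edgeR adjusted p = 0.0308), the former not without replicates 20 and 21 (-0.77, edgeR adjusted p = 0.117). Os9 was not called without cSCC replicate 21 (0.66, edgeR adjusted p = 0.297) or AK replicate 11, 12 or 17 (edgeR adjusted p = 0.0534 to 0.0693).

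Known HIF targets made up the rest of the list. In AK vs. NS, 10 of 51 targets were called higher and 1 lower, where 2.26% and 2.38% of all genes were, and nothing is read from this count. The 11 calls fell to between 4 and 7 when NS replicate 1, 2, 4 or 5 or AK replicate 12, 13, 14, 15, 16 or 17 was left out, the lowest being without NS replicate 4, and to 0 with all 20 samples in 1 fit. The largest of these were Vegfa, the main vessel growth factor (log2 fold change 1.60, SE 0.32), Ndrg1 (1.46, SE 0.28), the mitophagy gene Bnip3 (1.18, SE 0.28) and Pfkfb3, an activator of glycolysis (1.16, SE 0.25), and the lower gene was the haem oxygenase Hmox1 (-0.64, SE 0.17). Hmox1 stayed called in 6 of 16 fits that left out 1 sample, being lost without NS replicate 2, 4, 5 or 9 or AK replicate 12, 13, 14, 15, 16 or 17 (log2 fold change -0.74 to -0.57 over the 16 fits), and Bnip3 was not called without NS replicate 1 or 4 or AK replicate 16. In cSCC vs. NS, 32 of 52 targets were higher and 0 lower, where 11.7% and 7.65% of all genes were, and the median log2 fold change was 1.504 over the targets and 0.14 over all genes. Without replicates 20 and 21, 24 of 52 were higher and 0 lower, where 5.74% and 6.46% of genes were. In cSCC vs. AK, 24 of 52 were higher and 0 lower, where 16% and 8.34% were, and 18 of 52 without replicates 20 and 21, where 6.71% of genes were higher and 5.90% lower.

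Among 20 genes of glucose uptake and glycolysis, 15 were higher in cSCC than in NS, where 11.7% of all genes were, and 13 without replicates 20 and 21, where 5.74% were. Slc2a1 was 30.8 to 161 CPM in NS, 143 to 196 CPM in AK and 239.6, 589, 192 and 124 CPM in cSCC replicates 18 to 21 (cSCC vs. NS log2 fold change 1.90, SE 0.48, edgeR adjusted p = 0.0150). Pgk1, which makes ATP in glycolysis, was 580.0, 577, 372 and 179 CPM in the same libraries (1.23, SE 0.34, edgeR adjusted p = 0.0231). Hk1, a hexokinase, was called higher in cSCC vs. AK (2.99, SE 0.60, edgeR adjusted p = 0.00451), with 144 CPM in replicate 21 and 3.47 to 38.7 CPM in the other cSCC. It was 1.61 without replicate 21 (edgeR adjusted p = 0.0447) and 1.54 without replicates 20 and 21 (edgeR adjusted p = 0.0988). Without cSCC replicate 19, Slc2a1 and Pgk1 were not called against NS (1.27 and 1.05, edgeR adjusted p = 0.0800 and 0.0722).

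Among 14 genes of vessels and matrix, 11 were higher in cSCC than in NS, where 11.7% of all genes were. Without replicate 21 it was 6, where 6.97% of all genes were higher, and without replicates 20 and 21 it was 5, where 5.74% were. Pgf, a relative of Vegfa, was 27.1, 292, 43.2 and 10.6 CPM in cSCC replicates 18 to 21 and at most 6.51 CPM in NS (log2 fold change 5.65, SE 0.91, edgeR adjusted p = 0.00185). Adm, a vasodilator peptide, was 150.0, 186, 92.2 and 45.0 CPM against 3.38 to 28.3 CPM in NS (3.26, SE 0.53, edgeR adjusted p = 0.00198). Vegfa was 15.3, 26.8, 115 and 18.03 CPM against 2.70 to 8.13 CPM in NS (log2 fold change 3.0, SE 0.51, or 7.99-fold, edgeR adjusted p = 0.00250). Its highest value was in the library with lung genes, and without that library its log2 fold change was 1.86 (edgeR adjusted p = 0.00864). Kdr, the endothelial receptor for Vegfa, rested on replicate 21 with 181 CPM against 7.47 to 13.7 CPM in the other cSCC (3.43, SE 0.72, edgeR adjusted p = 0.00685), and was 1.02 without it (edgeR adjusted p = 0.205). Plod1, a collagen hydroxylase, had its highest level in the same library (137 CPM) and was called higher in cSCC vs. AK (3.01, SE 0.71, edgeR adjusted p = 0.00911) but not without it (1.35, edgeR adjusted p = 0.161).

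Among 18 targets of survival, pH, iron and feedback, 6 were higher in cSCC than in NS, where 11.7% of all genes were, and 6 without replicates 20 and 21, where 5.74% were. Car9, a carbonic anhydrase of hypoxic tumor cells, was 11.1, 30.8, 11.4 and 0.662 CPM in cSCC replicates 18 to 21 and at most 3.04 CPM in NS (log2 fold change 3.08, SE 0.78, edgeR adjusted p = 0.0157), and was not called without replicate 19 (2.22, edgeR adjusted p = 0.103). Bnip3 was 665, 558, 339 and 408 CPM against 49.3 to 194.5 CPM in NS, with no overlap (1.94, SE 0.35, edgeR adjusted p = 0.00321). For Bnip3 in cSCC vs. AK the log2 fold change was 0.80 (SE 0.31, edgeR adjusted p = 0.0688), and it was called higher without AK replicate 12 (0.88, edgeR adjusted p = 0.0409) or cSCC replicate 20 (0.94, edgeR adjusted p = 0.0491).

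**Figure D5:**
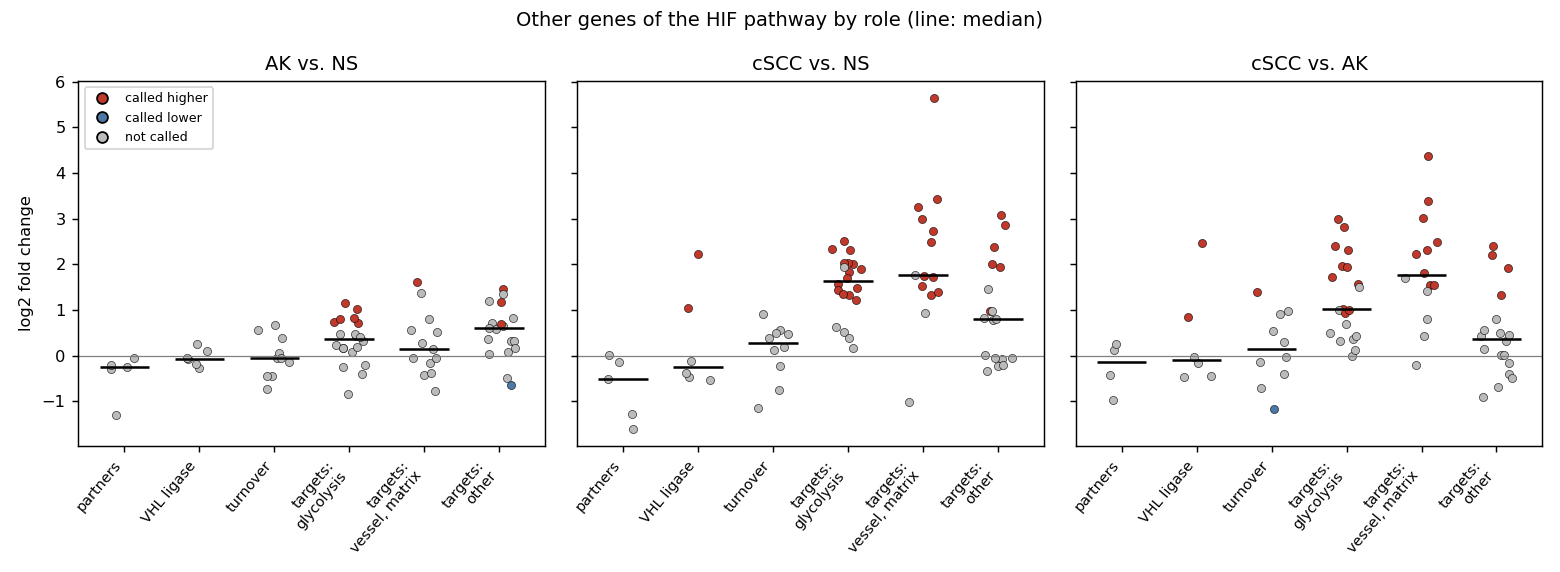
Log2 fold change of the genes of the HIF pathway list by role in the 3 comparisons between groups, one point per gene, red where called higher, blue where called lower and grey where not called, with a line at the median. Targets lie mostly above 0 in cSCC vs. NS. In that comparison 32 of 52 targets, 0 of 5 partners and 2 of 6 ligase subunits were called higher, where 11.7% of all genes were. Without cSCC replicates 20 and 21 (not drawn), 24 of 52 targets were called higher, where 5.74% of all genes were.

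The genes whose level followed Hif1a most closely over the 20 samples, by Pearson's r of log2(CPM + 1) among 11480 genes, were Tmigd1 (r = 0.89), Pi15 (0.88), Usp45 (0.88), Pgk1-rs7 (0.87) and Mapk6 (0.87), and over the 16 NS and AK samples r was 0.87 to 0.92. Pgk1-rs7 is a near copy of Pgk1, and reads may have been split between them. Egln3 was followed by Fam162a (0.94), Ifit1 (0.92), Tmigd1 (0.92), Mgarp (0.90) and Gjb6 (0.89), with 0.89 to 0.94 over the 16 samples. Epas1 was followed by Limch1 (0.86), Dag1 (0.85), Sulf2 (0.84), Lmo7 (0.83) and Ski (0.83), and over NS and AK alone these r were 0.05 to 0.42, so the likeness rested on the cSCC samples. The samples share groups, mice and differences in depth, and the r are descriptions without a test.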

How the data were processed

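Total RNA of 8 NS, 8 AK and 4 cSCC tissues was sequenced as paired-end Nextera libraries. Per the labels, the authors trimmed reads with Trimmomatic 0.36, aligned them with HISAT2 2.0.5 and counted them with featureCounts 1.5.2, and the builds named are hg19 and mm9. The methods of the study name GRCm38 and StringTie instead, and the strand of counting is not given in the sources used here. The authors deposited raw counts per gene symbol, not normalized, for 22090 genes, of which 18160 had a count, and 13 mitochondrial genes were at 0 in every sample. The table holds no coordinates, and those given come from GENCODE M21 (GRCm38) by symbol.

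CPM were computed from the counts with TMM factors over the 20 samples, and CPM per kb with the union of exon lengths. Samples were grouped by their labels. Pairs of groups were compared with edgeR 4.0.16 (R 4.3.3), after filtering with filterByExpr, by the quasi-likelihood test. The p-values were adjusted by Benjamini and Hochberg's method over all genes tested. A gene was called when the adjusted value was under 0.05 and its fold was over 1.5 or under 0.67. The script was tested on simulated data. Replicates are separate tissues, and no 2 samples of a group matched within sampling noise. The genes and lists were chosen with earlier results of these data known. Named genes were the 9 genes, the 4 called higher and the 4 called lower with the largest fold change of the pathway list in each comparison, Vegfa, Slc2a1, Car9, Bnip3, Pgk1, Cited2 and Cul2, and the 5 genes most correlated with Hif1a, Epas1 and Egln3 among genes with at least 10 counts in at least 10 samples. Alternatives were upper quartile factors, library size alone, DESeq2 1.42.0, limma 3.58.1 voom with sample quality weights, every gene with at least 1 count, at least 10 counts in every sample, all 20 samples in 1 fit, leaving out each sample, and leaving out cSCC replicates 20 and 21. Summed marker lists were also made for fibroblasts, macrophages, adipocytes and skeletal muscle. Keratinocyte markers summed to 15220 to 42610 CPM in NS, 16360 to 32380 in AK and 5209 to 28320 in cSCC. Fibroblast markers summed to 1097 to 8452 CPM in NS, 1258 to 4965 in AK and 1350 to 6189 in cSCC. Macrophage markers summed to 1373 to 4874, 1312 to 8059 and 763 to 7271 CPM, adipocyte markers to 214 to 2292, 309 to 1637 and 152 to 2208 CPM (Plin1 at 0 in every cSCC), and skeletal muscle markers to 607 to 8363, 24.9 to 5217 and 514 to 8327 CPM in the same groups.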

Additional observations from a re-analysis of the deposited data

Results flagged for a closer look

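In 5 of 26 sets of 1 gene in 1 group, a single sample stood apart from the rest by Dixon's criterion. The criterion is set so that about 1 of 20 independent sets of normal values meet it. These sets share libraries, and those of Hif3a are nearly all 0, so the count of 5 cannot be set against that rate. Epas1 was 46.4 CPM in AK replicate 14 (154 counts), where the other AK had 64.1 to 79.1 CPM. Vhl was 3.78 CPM in AK replicate 12, from 3 counts in a library of 867219, where the other AK had 22.3 to 35.6 CPM. Egln2 was 77.2 CPM in cSCC replicate 21 (467 counts), the library with heart muscle genes, where the other cSCC had 12.5 to 20.7 CPM. Hif3a was 0.528 CPM in NS replicate 1 (3 counts) and 0.827 CPM in cSCC replicate 21 (5 counts), where the other samples of those groups had at most 0.213 CPM and 0 CPM.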

How the results depend on the processing

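No paired analysis was possible because the groups share no replicate numbers. Over 1515 values of single genes and levels under an alternative, 1322 kept their direction and their side of the threshold (levels moved by less than 1 SD), 118 lost a call, 35 gained one and 40 changed sign, and causes were not tested except as the construction of an alternative shows.
The number of the 9 genes called in AK vs. NS was 1, and 3 with DESeq2 or limma voom (Egln1 and Egln3 added) and 1 to 3 without single samples. In cSCC vs. NS it was 1, and 0 with library size alone, 2 without cSCC replicates 20 and 21 and 0 to 1 without single samples. In cSCC vs. AK it was 1, and 0 with library size alone, limma voom or every gene with at least 1 count, and 0 to 2 without single samples. Of the pathway list, 11 genes were called in AK vs. NS, 7 with every gene with at least 1 count, 0 with all 20 samples in 1 fit and 4 to 12 without single samples. In cSCC vs. AK 28 were called, 17 with limma voom and 15 with at least 10 counts in every sample.
Changes of sign were small in AK vs. NS, for Epas1 (-0.03 with library size alone and with at least 10 counts in every sample), Vhl (-0.02 with library size alone, -0.01 to 0.20 without single samples) and Siah1a (-0.03 and -0.02 in the former 2 settings, -0.04 to 0.12 without single samples). Without cSCC replicates 20 and 21, cSCC vs. NS turned to -1.22 for Epas1, -0.21 for Arnt and -0.91 for Hif1an, and cSCC vs. AK to 0.29 for Hif1a, -1.25 for Epas1, -0.33 for Arnt, 0.55 for Egln3 and -0.54 for Hif1an. Hif1an in cSCC vs. NS was -0.06 with upper quartile factors, -0.24 with library size alone, -0.43 with limma voom, -0.04 with every gene and -0.08 with all 20 samples in 1 fit. In cSCC vs. AK, limma voom gave -0.03 for Epas1 and -0.15 for Hif1an, every gene gave -0.03 for Arnt, and Egln3 was 0.01 with DESeq2 and 0.06 with at least 10 counts in every sample. Without single samples, cSCC vs. NS ranged over -0.02 to 1.20 for Epas1, -0.02 to 0.54 for Arnt and -0.66 to 0.34 for Hif1an, and cSCC vs. AK over -0.22 to 0.35 for Arnt, -0.79 to 0.19 for Egln3 and -0.37 to 0.65 for Hif1an.
All 20 samples in 1 fit called 9 genes of the whole table in AK vs. NS, against 542, and 398 to 1049 were called under the other settings of scaling, tool and filter. Leaving out 1 sample moved this count to between 164 (without NS replicate 4) and 920 (without NS replicate 8). In cSCC vs. NS 2340 were called (1308 to 3271), and in cSCC vs. AK 2935 (1270 to 3765, and 1787 without cSCC replicate 21).
The median log2 fold change of all genes moved from 0.14 to -0.17 in cSCC vs. NS and from 0.17 to -0.09 in cSCC vs. AK with library size alone. The smallest libraries limit Vhl, Hif1an, Arnt and Egln2, which had under 25 counts in at least 1 sample.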
